A study of Ovis aries with 2 samples.

Results

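Intervals bound by the nuclear receptor PPARG were assigned to 22 genes of the ubiquitin and proteasome system in the sheep conceptus. These were all the genes among the 1833 names in the authors' table that begin with PSMA to PSMG, UBE, USP or CUL followed by a digit, or FBXO, FBXL or FBXW. They were assigned to 21 of the 2288 PPARG intervals. The data came from chromatin immunoprecipitation with sequencing of conceptuses (the embryo with its extraembryonic membranes) developing in utero, collected on day 14 of pregnancy from columbia/ramboulette crossbred ewes. Chromatin of 4 conceptuses, each from a separate ewe, was pooled, and gave 1 library of DNA pulled down by a polyclonal rabbit anti-PPARG antibody and 1 library of input DNA. Whole conceptuses were used, so the cells that carried a signal cannot be told apart. No library was replicated, so no value below carries a biological error and no test was made.

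Ubiquitin is a small protein attached to other proteins in a relay of activating (E1), conjugating (E2) and ligating (E3) enzymes. Cullins are scaffolds of the largest group of E3 ligases, and F-box proteins are interchangeable subunits that choose the substrate for the cullin CUL1. Deubiquitinases of the USP family remove the tag. Proteins carrying suitable chains are degraded by the proteasome, a barrel-shaped 20S core of alpha and beta subunits capped by a 19S regulatory particle. In trophectoderm, as in other growing tissue, this system sets the turnover of cell cycle regulators and signalling proteins and clears misfolded ones. PPARG is best known as a lipid-sensing transcription factor of adipocytes and trophoblast, and binds DNA together with a retinoid X receptor.

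The height of an interval is the highest value of the authors' signal track within it, in units with no stated scaling. Over all 2288 PPARG intervals the median height was 22, with quartiles of 17 and 31. Distances run from the highest point (the summit) of an interval to the start of the assigned gene, and the track was stored in bins of about 32 bp. An interval said to hold a promoter carried the authors' promoter mark, whose reach from a gene start is not stated. The mark was also set where no assigned start lay inside, as in the FBXO46 interval of 1064 bp at 4640 bp upstream. It alone therefore does not place a site at the start of an assigned gene. Coordinates are those of the file, on build Oar_v3.1. The input library listed 5 intervals, and 0 of the 21 intervals described here matched one by chromosome, start and end. Partial overlap was not checked. The input signal at the 21 sites is not listed.

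Having an interval was about as common for these families as for any gene. Of 206 reference gene names that fit the name rule, 21 had an assigned interval, which is 10.2% (Wilson 95% interval 6.76 to 15.1), against 9.28% of all 16388 named protein-coding genes. FBXO44, the other member, is not among the reference names. When a summit had to lie within 1 kb of the gene's start, the family share was 8 of 206 (3.88%, 1.98 to 7.47), against 2.31% of all named genes. With intervals at or above the median height, the order of the family and all genes turned around, at 8 of 206 (3.88%) against 5.67%. The family share therefore stood near the background, and the description below concerns which genes and sites made it up. The error given for a share reflects counting alone, and takes genes that share an interval as separate.

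**Figure D1:**
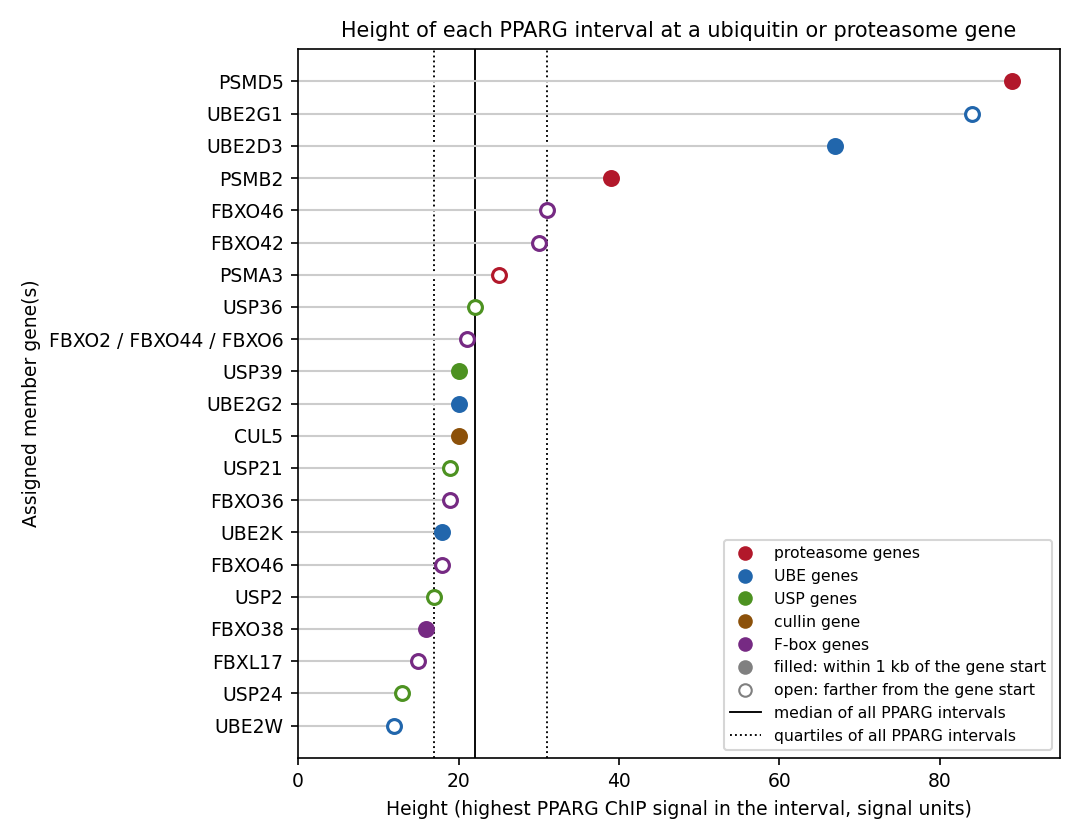
Height (horizontal axis, signal units) of each of the 21 PPARG intervals at a ubiquitin or proteasome gene, 1 point per interval, named by its assigned members. Colours mark the gene families, filled points lie within 1 kb of the gene start, and vertical lines give the median of 22 and the quartiles of 17 and 31 over all PPARG intervals. The 3 highest intervals, at PSMD5, UBE2G1 and UBE2D3, stand at 67 or above, and the next is at 39.

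Among proteasome genes, PSMD5, PSMB2 and PSMA3 had an interval, 3 of 50 reference names beginning with PSM (Wilson 95% interval 2.06% to 16.2%). That range holds the 9.28% of all named genes. PSMD5 encodes a chaperone that helps assemble the base of the 19S particle. Its interval was the highest of all 21, with a height of 89 and a mean signal of 25.3 (chromosome 2, 2664702 to 2666070), and ranked 17 among the 2288 PPARG intervals. The summit lay 71 bp upstream of PSMD5 and 69 bp upstream of LOC101116026, a difference smaller than a bin. In the reference gene table these genes are direct neighbours, and their strands are not given here. If their starts face away from each other, the summit lay between them, with the starts 140 bp apart by the authors' distances. The interval held a CpG island, a GC-rich stretch found at many promoters, and was marked with 2 promoters. Its signal cannot be given to either gene alone.

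PSMB2 encodes a beta subunit of the 20S core. Its interval (chromosome 1, 10372513 to 10373385) had a height of 39, above 85.2% of all PPARG intervals, and a mean signal of 13.7. The summit lay 57 bp into the gene, and no other gene was assigned. The interval held a CpG island and a promoter. PSMB2 was thus the proteasome subunit gene with a site at its own start. PSMA3, an alpha subunit of the core, was reached only from a distance. Its interval (chromosome 7, 67451212 to 67452061) had a height of 25 and lay 5139 bp upstream of PSMA3, 1163 bp beyond the start of a lysine tRNA gene and 61449 bp beyond that of ACTR10. It held no CpG island and was marked with 2 promoters.

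The other proteasome genes had no assigned interval. These were 7 of 8 alpha subunit names, 10 of 11 beta subunit names, 13 of 14 PSMD names, and all of the 7 PSMC, 6 PSME or PSMF and 4 PSMG names. The beta genes without one included the catalytic subunits PSMB5, PSMB6 and PSMB7 and the immunoproteasome subunits PSMB8, PSMB9 and PSMB10. PSMC names cover the ATPases that unfold substrates, PSME and PSMF names the activators and an inhibitor, and PSMG names the chaperones of the core. PSMC3IP and PSME3IP1 fit the pattern by name but encode no subunit. Counts of 0 among so few names leave wide limits, up to 35.4% for PSMC and 49.0% for PSMG names (upper Wilson bounds), and 9.28% of all genes had an interval.

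Of the conjugating enzymes, UBE2D3, UBE2G1, UBE2G2, UBE2K and UBE2W had an interval, 5 of 34 UBE2 names (14.7%, 6.45 to 30.1). That range holds the 9.28% of all named genes. UBE2D3 is an E2 that works with a broad range of E3 ligases. Its interval was the third highest, with a height of 67 and a mean signal of 24.8 (chromosome 6, 22119060 to 22120187), above 97.0% of all PPARG intervals. The summit lay 41 bp upstream of the start, with no other gene assigned. The interval held a CpG island and a promoter. This was the highest member interval that belonged to a single gene. The close paralogs UBE2D1, UBE2D2 and UBE2D4 had none assigned.

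The second highest interval, with a height of 84 and a mean signal of 24.1 (chromosome 11, 24398039 to 24399220), was assigned to UBE2G1 from far away. It lay 90663 bp downstream of the UBE2G1 start, beyond the end of the gene, and 18 bp upstream of ANKFY1, an endosomal protein gene. The interval held a CpG island and a promoter. The height therefore describes a site at the start of ANKFY1. The reference gene table places the name UBE2G1 on another chromosome than the authors' table does. The other 20 members found there were on the same chromosome in both.

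UBE2G2, UBE2K and UBE2W had lower sites. UBE2G2 is an E2 of the degradation of misfolded endoplasmic reticulum proteins. Its interval (chromosome 1, 262777198 to 262778148) had a height of 20 at 214 bp into the gene. It was also assigned to SUMO3, which encodes a ubiquitin-like modifier and whose start lay 8888 bp away. UBE2K, an E2 that builds the chains read by the proteasome, had a height of 18 at 591 bp upstream (chromosome 6, 58748267 to 58749302), with no other gene. Both sites held a CpG island and a promoter, and both heights were below the median of 22 over all intervals. UBE2W, which adds ubiquitin to the amino terminus of proteins, had the lowest of the 21 intervals, at 12 (chromosome 9, 49964487 to 49964965). It lay 29576 bp into the gene without a CpG island or promoter, and only 1.09% of PPARG intervals were lower. None of the 6 UBE3 and UBE4 names, which cover ligases, had an interval, which gives 5 of 40 over all UBE names (12.5%, 5.46 to 26.1).

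CUL5 was the cullin with an interval, 1 of 8 names (12.5%, 2.24 to 47.1), beside 9.28% of all named genes. It is the scaffold of ligases that recruit substrates through elongins and SOCS-box proteins. The interval (chromosome 15, 17088461 to 17089433) had a height of 20 and a mean signal of 8.83, at 219 bp into the gene. It held a CpG island and a promoter, and no other gene was assigned. CUL1, the partner of the F-box proteins, had none assigned.

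F-box genes were the largest group of members, with 8 genes at 7 intervals, and only FBXO38 had a site within 1 kb of its start. FBXO38, a ligase subunit that targets the receptor PD-1 in human T cells, had a height of 16 at 117 bp upstream. Its interval (chromosome 5, 57302628 to 57303322) held a CpG island and a promoter. This was the lowest member interval near a start. FBXO46 had a pair of intervals whose summits were 1456 bp apart, and no other member had more than 1. The nearer (chromosome 14, 52341623 to 52342455) had a height of 31 at 3184 bp upstream and held a CpG island. The farther (52343073 to 52344137) had a height of 18 at 4640 bp upstream and held none. Both were marked with a promoter. The nearer was also assigned to QPCTL, whose start was 15648 bp away.

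A single interval served FBXO2, FBXO6 and FBXO44, neighbouring genes of a subfamily, so these count as 1 site. FBXO2 and FBXO6 recognise glycans on misfolded glycoproteins. The interval (chromosome 12, 40156494 to 40157181) had a height of 21. Its summit lay 1634 bp into FBXO6, 9330 bp downstream of the FBXO44 start and 9668 bp upstream of FBXO2. The interval carried a promoter mark and no CpG island, with no assigned start within 1 kb of the summit. The remaining F-box sites were deep inside genes and carried neither mark. FBXO42, a ligase subunit that targets p53 in human cells, had a height of 30 at 105926 bp into the gene (chromosome 2, 248690773 to 248691735). FBXO36 had 19 at 59509 bp. FBXL17, which removes wrongly paired BTB protein dimers, had 15 at 43190 bp. By subfamily, 6 of 33 FBXO names (18.2%, 8.61 to 34.4), 1 of 18 FBXL names and 0 of 9 FBXW names had an interval. The share of all named genes was 9.28%, within the FBXO range. The 6 include FBXO2 and FBXO6, which share 1 interval but are counted separately. FBXW7, the ligase subunit for cyclin E and MYC, was among the names without an interval.

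Deubiquitinases had intervals with heights from 13 to 22 and a median of 19. These were at 5 of 48 USP names (10.4%, 4.53 to 22.2), beside 9.28% of all named genes. Median heights were 19 for F-box and 20 for UBE genes. USP39 was the only one with a site within 1 kb of its start. It is a catalytically inactive family member that works in the spliceosome. Its interval (chromosome 3, 57306272 to 57306977) had a height of 20 at 150 bp upstream, held a CpG island and was marked with 2 promoters. That interval was also assigned to C3H2orf68, 3105 bp from its start. USP36, a nucleolar enzyme, had the highest of this group, 22, at 27959 bp from the start and past the end of the gene (chromosome 11, 52548186 to 52549571). USP21, a histone H2A deubiquitinase, had 19 at 4798 bp, in an interval with 3 other genes. The nearest start there was that of PPOX, a haem synthesis enzyme, 2486 bp away. Another gene of that interval was UFC1, the conjugating enzyme of the ubiquitin-like modifier UFM1, at 9439 bp. USP2, a deubiquitinase known to stabilise cyclin D1, had 17 at 13563 bp into the gene, and USP24 had 13 at 28818 bp. No USP interval reached above the overall median.

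**Figure D2:**
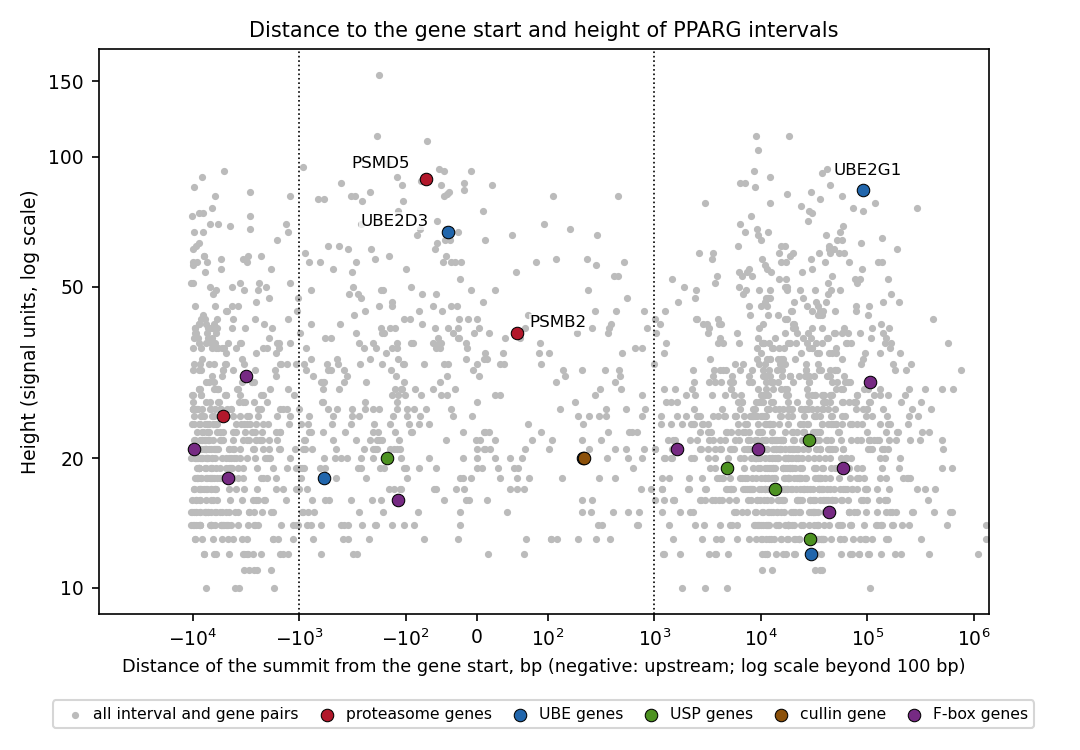
Distance of the summit from the gene start (horizontal axis, bp, negative upstream, log scale beyond 100 bp) and height (vertical axis, signal units, log scale) of each pair of PPARG interval and gene, with all pairs in grey and the members in colour. Dotted lines mark 1 kb on either side. PSMD5, UBE2D3 and PSMB2 stand high close to the start, UBE2G1 stands at 84 far beyond it, and the points of UBE2G2 and CUL5 overlap at a height of 20.

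Across the families, 8 of the 22 members (36.4%, 19.7 to 57.0) had a summit within 1 kb of their own start, and among all named genes with an interval the share was 24.9%. They were PSMD5, PSMB2, UBE2D3, UBE2G2, UBE2K, CUL5, FBXO38 and USP39. The outermost of them was UBE2K at 591 bp, and the nearest member outside the window was FBXO6 at 1634 bp. These 8 sites split by height. PSMD5, UBE2D3 and PSMB2 were at 39 or above, and the other 5 were between 16 and 20, below the overall median. The median of the 8 was 20, and that of all 410 PPARG intervals within 1 kb of an assigned start was 27.5.

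All 8 near-start sites held a CpG island, where 84.4% of the 410 PPARG intervals within 1 kb of an assigned start did. Of the other 13 member intervals, 2 held one, at FBXO46 and at the ANKFY1 start assigned to UBE2G1. A promoter mark was on 6 of these 13 (46.2%, 23.2 to 70.9), the ANKFY1 start among them. Of gene-assigned intervals not within 1 kb of an assigned start, 30.6% had one. Over all 21, a CpG island was present in 10 (47.6%, 28.3 to 67.6) and a promoter mark in 14 (66.7%, 45.4 to 82.8), against 32.8% and 49.3% of the 1518 gene-assigned PPARG intervals. A summit within 1 kb of any assigned start, ANKFY1 included, was found in 9 (42.9%, 24.5 to 63.5), against 27.0%. The background share of the CpG and near-start marks lay inside the members' intervals, as did that of promoters.

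**Figure D3:**
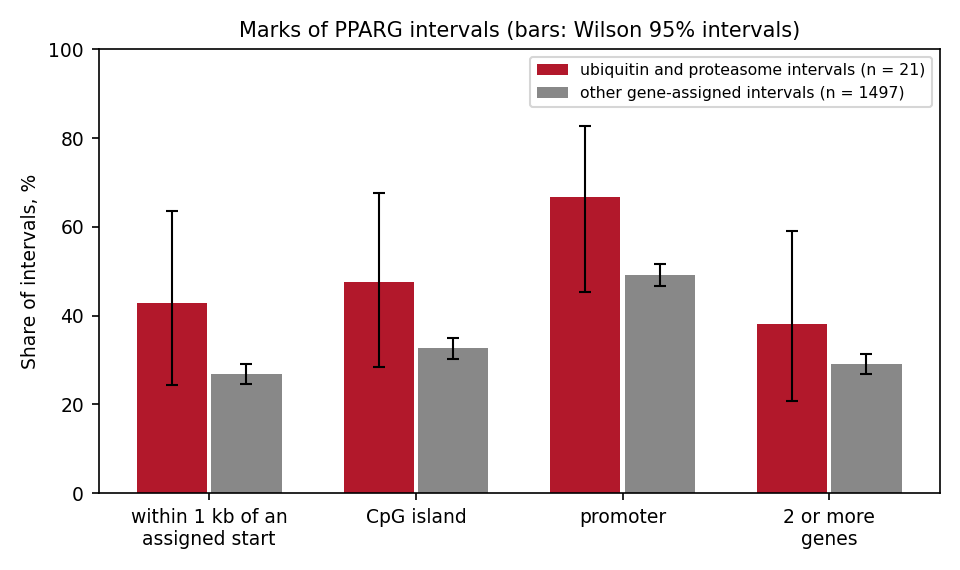
Share of PPARG intervals (vertical axis, %) with each of 4 properties, for the 21 intervals at ubiquitin and proteasome genes and the 1497 other gene-assigned intervals, with Wilson 95% intervals as error bars. Member shares are higher in each property, for example 47.6% against 32.6% for CpG islands, and each of the wide member intervals spans the share of the other intervals.

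At the opposite end stood 7 intervals with neither mark (33.3%, 17.2 to 54.6), against 45.7% of gene-assigned intervals. They were at FBXL17, FBXO36, FBXO42, UBE2W, USP2, USP24 and USP36. Their heights ran from 12 to 30 with a median of 17, beside a median of 21 for all gene-assigned intervals with neither mark. Of these 7 genes, 6 had the site inside the gene, more than 10 kb from the start. Over all 21 intervals the median height was 20, beside 22 for gene-assigned intervals. A total of 5 lay at or above the upper quartile of 31, and 5 at or below the lower quartile of 17. Length ranged from 478 to 1385 bp with a median of 950 bp, beside 888 bp. Higher intervals tended to be longer, with a Spearman rho of 0.48 over the 21 intervals of this 1 library and 0.46 over all 1518 gene-assigned ones.

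The member intervals fell on 11 chromosomes, a count given without a background. The nearest other PPARG interval was a median of 391 kb away (range 1.46 to 2284 kb), beside 131 kb for all PPARG intervals. That set includes intervals with no assigned gene, and the difference was not tested. Apart from the FBXO46 pair, no member interval had a neighbour within 5 kb. The interval of UBE2W stood 2284 kb from the next.

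Sharing of sites limits which gene a height belongs to. Of the 21 intervals, 13 were assigned to a single gene and 8 to 2 or more (38.1%, 20.8 to 59.1), against 29.1% of gene-assigned intervals. Of the 21, 7 included a gene outside these families. For 5 members (PSMA3, UBE2G1, USP21, FBXO2 and FBXO44), another assigned start lay nearer to the summit by more than a bin. Taking single-gene intervals alone left 13 genes, or 6.31% of the family names, beside 4.78% of all named genes.

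Other genes of the pathway, in 5 lists chosen by known role, had an interval in 21 of 152 cases (13.8%, 9.22 to 20.2), beside 9.28% of all named genes. Their 24 intervals had heights from 14 to 87 with a median of 26.5, beside 22 for gene-assigned intervals, and 17 (70.8%) held a CpG island, beside 32.8%. A summit within 1 kb of the own start was found for 10 of the 21 (47.6%), beside 24.9% of all named genes with an interval. The lists were chosen with earlier results known and were not tested, so nothing particular to them is read from these shares. The highest was at RNF167, a membrane-bound E3 ligase, with 87 at 18 bp upstream. It shared the interval with SLC25A11 (404 bp upstream), PFN1 and GP1BA.

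Of the 13 listed proteasome factors outside the name rule, 3 had an interval (23.1%, 8.18 to 50.3), beside 9.28% of all named genes. NFE2L1, the transcription factor that raises proteasome genes when proteasome activity falls, had a height of 27 at 617 bp upstream. The related NFE2L2 had 14 at 682 bp into the gene, and both intervals held a CpG island. NGLY1, which removes glycans from NFE2L1, had 46 at 40933 bp into the gene without either mark. The other 10, among them the chaperone POMP and the receptor ADRM1, had none.

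In the list of other deubiquitinases and related genes, 6 of 28 had an interval (21.4%, 10.2 to 39.5). Without PAN2, an RNA deadenylase with a domain of deubiquitinase descent, 5 of 27 had one (18.5%, 8.18 to 36.7), a range that holds the 9.28% of all named genes. YOD1, which acts in the clearance of endoplasmic reticulum proteins, had a height of 68 at 160 bp into the gene and a further 33 at 1472 bp upstream, both also assigned to PFKFB2. JOSD2 had 49 at 783 bp upstream, in an interval with ASPDH and LRRC4B. MYSM1, a histone H2A deubiquitinase, had 28 at 33 bp into the gene. PAN2 had 23 at 11 bp into the gene and 26 in an interval nearer to CNPY2. STAMBPL1 had 22 inside the gene. OTUD5 had 27, in an interval whose nearest start was that of PIM2.

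In the list of RING, HECT and RBR ligases, 8 of 57 genes had an interval (14.0%, 7.29 to 25.3), beside 9.28% of all named genes. The list also holds subunits and activators of the anaphase-promoting complex, ANAPC4 and CDC16 among them, and ligases of other classes. Sites within 1 kb of the start were those of RNF167, of MDM2, the p53 ligase, with 20 at 457 bp upstream, and of ANAPC4, a subunit of the anaphase-promoting complex, with 17 at 57 bp upstream. HUWE1 had 42 at 2522 bp into the gene, and BIRC3 and SIAH1 had 24 and 25 at 2891 and 3608 bp upstream. ARIH2, which works with CUL5, had 63 in an interval that lay 8701 bp upstream of it and 56 bp upstream of SLC25A20. CDC16 had 23 in an interval nearer to UPF3A.

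Among partners of the cullins, 1 of 29 had an interval (3.45%, 0.611 to 17.2), a range that holds the 9.28% of all named genes. It was CAND1, which exchanges the substrate receptors of cullin ligases, with a height of 31 at 354 bp upstream. That interval held a CpG island. SKP1, RBX1, the elongins and the 8 listed COPS genes had none assigned. For VCP and shuttle factors the count was 3 of 26 (11.5%, 4.00 to 29.0), a range that also holds 9.28%. These were DDI2, a protease that binds ubiquitin, with 36 at 9193 bp into the gene, UBXN1 with 24 and 18, and UBXN4 with 16. The sites of UBXN1 and UBXN4 lay 9096 bp or more upstream. Both UBXN1 intervals were also assigned to BSCL2 and GNG3, and that of height 24 lay nearer to GNG3.

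**Figure D4:**
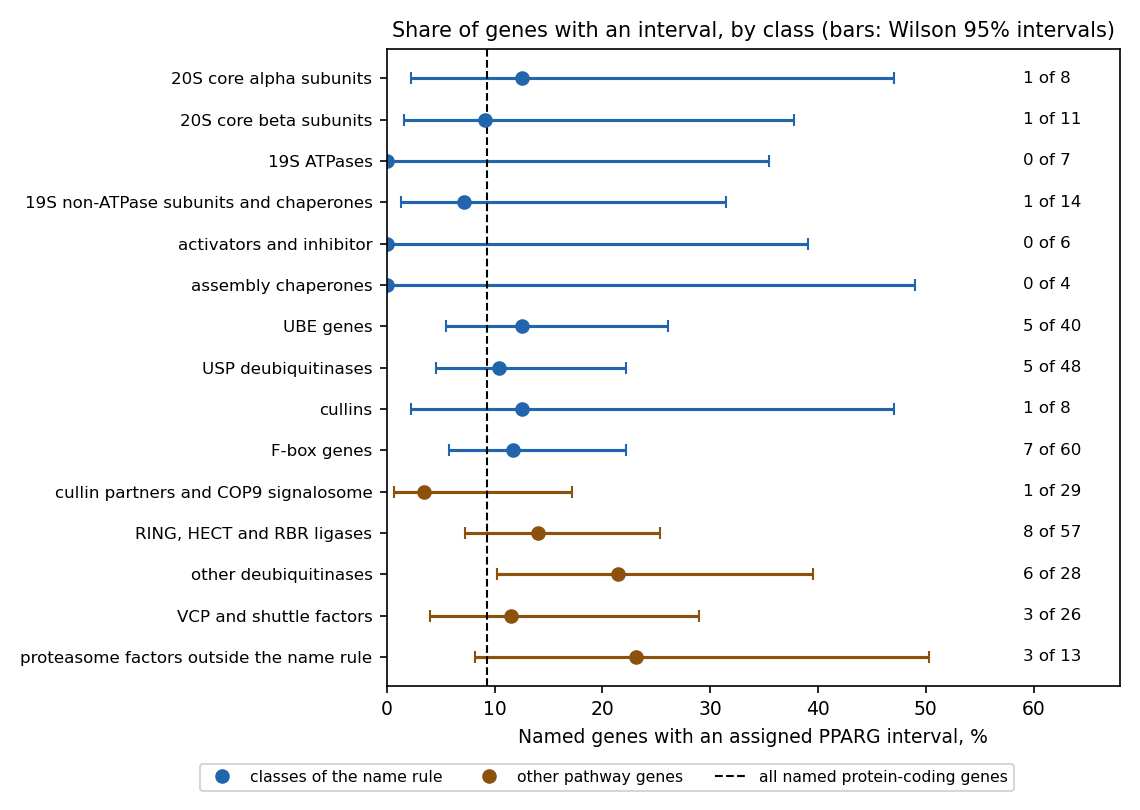
Share of reference gene names with an assigned PPARG interval (horizontal axis, %) for the 10 classes of the name rule in blue and 5 lists of other pathway genes in brown, with Wilson 95% intervals as bars and counts at the right. The dashed line is the 9.28% of all named protein-coding genes. The line crosses the interval of each class and list except that of other deubiquitinases, whose lower bound is 10.2%. With 15 intervals drawn and no adjustment, and with 8.18% as that bound without PAN2, this exception is not read as a result.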

How the data were processed

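The authors deposited a single table of intervals, with the highest and the mean signal of each, as signal of unstated unit and scaling between libraries, and with the number of CpG islands, promoters and assigned genes and the distance to each gene's start. Per the submitters' processing notes, BWA (version not given) was used with build Oar_v3.1. The sources used here do not give the caller, filters or annotation. Read totals are not given either, so the depth is unknown and heights carry no counting error. Mean signal multiplied by bin number was whole within 0.01 in 100% of PPARG intervals.

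Gene lists were split with their distances in Python 3.11.15 (pandas 2.3.3, scipy 1.17.1, figures with matplotlib 3.10.9), and members were taken by name. The parsing was tested on simulated data. Of 1833 names, 1521 matched a symbol or synonym in the gene table of RefSeq (assembly ARS-UI_Ramb_v3.0), among them 21 of the 22 members. That build differs from the authors' build, so it served only for names, neighbours and the check of chromosomes. Older symbols that did not match count as having no interval. Shares carry Wilson 95% intervals. With 1 library per group, no test was made. The members and lists were chosen with earlier results of these data known. Every member was to be named, with full positions for proteasome genes, sites within 1 kb of the start and the 10 highest members. Motif searches in promoters were planned and not run, since no sequence was used here. A further planned list of pathway genes is not reported here.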

Additional observations from a re-analysis of the deposited data

How the results depend on the processing

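The 21 intervals and 22 genes did not change when intervals listed in the input were left out. They also did not change when a ChIP height of 3 times a listed input height was required. Neither setting could change them, since no member interval matched a listed input interval by chromosome, start and end. A height of at least the overall median left 8 intervals at 8 genes, with a median height of 35, and the share of family names with an interval was 3.88%. Single-gene intervals numbered 13, at 13 genes, and the family share was 6.31%. The mean signal in place of the highest gave a median of 10. A window of 10 kb in place of 1 kb held 61.9% of the intervals in place of 38.1%. A wider window cannot lower that share, and no background share at 10 kb was computed. A height limit likewise cannot lower the median height, so the direction of both changes was fixed in advance. Of 46 values under other settings, 37 stayed within their counting interval or within 1.5 times the main count. The remaining 9 are those just given, and the 37 include the values under the input settings, which could not change. Requiring a site in the gene or within 2 kb upstream gave 16 genes (7.77% of family names, against 5.76% of all). Leaving out genes with a nearer start (17 genes) or the 4 names that fit the pattern only by letters (10.4%), the list of other deubiquitinases without PAN2 (18.5%), and the height limit on the other pathway lists (11.2%, against 5.67% of all named genes), were chosen after the data were seen. No paired analysis was possible because each group held 1 library. The lack of replicates and of read totals limits each height to a description of these libraries.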
